A study of Mus musculus with 30 samples.

Results

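The genes described here are the Rab GTPases, the small proteins that direct vesicle traffic between membrane compartments, together with the 4 Ehd ATPases that shape recycling endosomes. They were chosen by symbol alone, as every row of the count table named Rab with a number and at most a letter or a letter and a digit, plus Ehd1 to Ehd4. This gave 63 of the 25611 genes in the table, 59 Rab and 4 Ehd genes. Of these, 58 passed the filter on low counts and were tested. Rab25, Rab3b, Rab3c, Rab40b and Rab42 did not, with at most 9 counts in any library. The rule uses symbols and no measured value, although the family was proposed with earlier results of these data known.

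Each Rab protein cycles between a GDP-bound form held in the cytosol and a GTP-bound form on 1 kind of membrane, where it recruits tethers and motors. Exchange factors switch it on, GTPase-activating proteins switch it off, and a prenyl anchor holds it in the membrane. In dendritic cells this traffic carries engulfed material from early endosomes and phagosomes to lysosomes, and returns antigen-presenting molecules to the surface. Rubcn encodes Rubicon, a Rab7-binding regulator of the lipid kinase complex that acts in autophagy and in LC3-associated phagocytosis, an autophagy-related handling of phagosomes.

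The cells were mouse bone marrow cells turned into dendritic cells by 6 to 7 days of culture with FLT3L (200 ng/ml), from which total RNA was sequenced. Cells were Rubcn KO or WT, and were untreated, given OVA protein (ovalbumin, a soluble model antigen) for 30 min or 4 h, or fed for the same times with apoptotic Jurkat cells. Jurkat is a leukaemic T-cell line of human origin. The 10 groups had 3 libraries apiece, 30 in all. The labels give no strain, sex, age or removed exons, and do not say whether replicates came from separate mice, so p-values measure the spread between these libraries, which may be technical.

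Library totals ran from 9.73 M to 51.6 M counts (M, mega) with a median of 44.9 M. KO OVA 30 min replicate 3 was the shallowest library, and the next lowest total was 38.7 M. KO Jurkat 4 h replicate 2 stood apart from its 2 partners, with chi-square values per gene of 121 and 126 against 4.74 between those partners and 2.22 to 15.7 between replicates of the other groups. Rubcn counts in KO were 73.6% to 84.7% of WT with no overlap in the 5 conditions. These counts are summed over the gene and do not show which exons were removed. Dendritic cell markers (Flt3, Itgax, Cd74, H2-Ab1, H2-Aa and Zbtb46) were present in every group. Markers of several cell types moved with genotype or treatment. A list of 6 stromal genes summed to 591 ± 41.0 CPM (counts scaled to the same library total; SD, n = 3) in untreated WT and 811 ± 92.2 in untreated KO, and 6 basophil or mast cell genes to 24.2 ± 3.26 and 73.1 ± 16.1. Of 28 T-lineage genes, 15 were under 1 CPM in every untreated library. These 15 summed to 3.91 ± 0.0955 CPM in untreated WT and 4.59 ± 0.756 in untreated KO, to 42.8 ± 1.16 and 26.9 ± 5.94 after 30 min with Jurkat cells, and to 110 ± 16.7 and 75.1 ± 9.56 after 4 h. The 15 were picked for a low untreated level, which favours a rise. In the same order, all 28 summed to 304 ± 4.77 and 311 ± 12.2, to 375 ± 5.92 and 347 ± 8.91, and to 388 ± 23.4 and 336 ± 4.57 CPM. After 4 h, 23 of the 27 genes tested were called higher and 4 lower in WT, and 19 and 5 in KO. Of 5 markers of type 2 conventional dendritic cells, 5 were called lower in WT and 4 in KO after 4 h with Jurkat cells. Of 6 plasmacytoid dendritic cell markers, 2 to 4 were called lower in KO in each of the 5 conditions. Of 6 type 1 conventional dendritic cell markers, 1 to 3 were, and 1 was called higher with Jurkat cells at 30 min. Of the 5 type 2 markers, 1 to 3 were called higher in KO in each condition, and 1 was called lower in untreated cells and with OVA at 30 min. The part of these cell types in the results below was not tested.

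A gene is called higher or lower below where edgeR's quasi-likelihood test gave a false discovery rate (FDR) under 0.05 over all 14808 genes tested. Levels are in CPM scaled by TMM, which corrects library totals for composition. Fold changes are on the log2 scale with the standard error (SE) of the fit, and n is 3 libraries a group. The largest rises and falls named for each treatment in WT were picked among called genes without overlap, so their lack of overlap adds no support. In bulk RNA, fewer cells of a type and less RNA per cell cannot be told apart.

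Levels between genes can be compared only per length. Exon lengths came from the GENCODE basic annotation, and the annotation used for counting is not stated. The ranks hold for these lengths, and the SD covers no error in them. Rab43, with 5.39 kb of exon, was above Rab7, with 2.61 kb, in mean CPM over the 30 libraries (557 against 364). Per kilobase of exon in untreated WT cells, Rab7, which drives fusion of late endosomes and phagosomes with lysosomes, had the highest level of the 63 genes at 116 ± 1.17 CPM per kb. Rab5c, an early endosome fusion factor, stood at 107 ± 2.19, Rab24, linked to autophagy, at 104 ± 8.25, and Rab43, a Golgi Rab also known for cross-presentation in dendritic cells, at 102 ± 3.81. Rab5c, Rab24 and Rab43 did not differ beyond their spread (SD, n = 3). Rab1b, which acts from the endoplasmic reticulum (ER) to the Golgi, followed at 92.4 ± 2.23, then Rab7b, an endosome-to-Golgi factor, at 71.2 ± 0.649. In all, 10 genes lay above 50 CPM per kb, 35 between 1 and 50, and 18 under 1. Rab27a, which docks lysosome-related organelles for secretion, ranked 17 of 63 at 34.5 ± 0.201. In mm10 coordinates, Rab7 lies on chromosome 6 from 87999106 to 88045270, Rab27a on chromosome 9 from 73044810 to 73097614, and Ehd1 on chromosome 19 from 6276896 to 6300096.

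Promoter sequence was available for 51 of the 63 genes, in 63 windows of 300 bases (250 before and 50 after the start; RefSeq, GRCm38.p6). The bases before the start are printed for 3 members that the results below turn on: Rab20, which rose with both treatments, Rab3d, which fell with both at 4 h, and Rab34, which was higher in KO. Capitals mark the 2 motif matches found in Rab34, TGANTCA (AP-1) and a loose 10-base NF-kB core (GGGA and CC with any 4 bases between), in that order from the 5′ end.
Rab20 (chr8:11478641-11478890, minus strand): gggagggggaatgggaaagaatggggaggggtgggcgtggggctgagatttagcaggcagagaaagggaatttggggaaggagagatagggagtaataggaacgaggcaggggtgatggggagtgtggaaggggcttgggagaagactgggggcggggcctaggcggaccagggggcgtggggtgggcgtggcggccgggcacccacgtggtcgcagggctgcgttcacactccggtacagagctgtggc
Rab3d (chr9:21918184-21918433, minus strand): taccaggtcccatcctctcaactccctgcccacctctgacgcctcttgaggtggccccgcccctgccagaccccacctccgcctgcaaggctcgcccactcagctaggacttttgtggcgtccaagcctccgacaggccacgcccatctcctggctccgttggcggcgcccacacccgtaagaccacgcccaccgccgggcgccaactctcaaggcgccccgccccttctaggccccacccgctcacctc
Rab34 (chr11:78188177-78188426, plus strand): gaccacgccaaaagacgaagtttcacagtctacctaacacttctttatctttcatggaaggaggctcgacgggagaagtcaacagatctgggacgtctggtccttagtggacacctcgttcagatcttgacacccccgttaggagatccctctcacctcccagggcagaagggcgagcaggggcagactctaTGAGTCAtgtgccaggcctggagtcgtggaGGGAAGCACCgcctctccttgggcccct
The GC content of these stretches was 65.2% for Rab20, 69.2% for Rab3d and 56.4% for Rab34, against a median of 52.4% over the same stretch of all 32817 windows.

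Across the members' windows, searched on both strands, this NF-kB core was in 11 of 63 (17.5%, against 20.7% of all windows) and TGANTCA in 3 (4.76% against 7.81%). The interferon-response core, GAAA repeated after any 2 bases, was in 1 (1.59% against 3.43%). The core of the lysosomal-gene motif read by TFEB, TCACGTGA, was in 3 windows (4.76% against 0.975%), shown here in capitals within 30 bases.
Rab21 (chr10:115315604-115315633, minus strand): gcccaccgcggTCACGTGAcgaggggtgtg
Rab24 (chr13:55321961-55321990, minus strand): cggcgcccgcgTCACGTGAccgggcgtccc
Rab5a (chr17:53479127-53479156, plus strand): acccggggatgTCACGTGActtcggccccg
These 3 genes did not move one way after 4 h with Jurkat cells in WT: Rab21, which acts in integrin and early endosome traffic, changed by 1.001 (SE 0.0587), Rab5a by 0.62 (SE 0.0602) and Rab24 by -0.91 (SE 0.0495). A motif match is a description of the letters and not a binding site.

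The broadest change among these genes came 4 h after apoptotic Jurkat cells were added. In WT cells 32 of the 58 tested genes were called higher and 19 lower than untreated, where 79.5% of all genes tested were called, and the counts in KO were the same, 32 and 19, with 78.5% called. Of all genes, 38.9% were called higher and 40.6% lower in WT, and 37.5% and 41.0% in KO. The share of members called, 87.9% in both genotypes, was near that background. The members called higher include Rab9b, whose rise was fixed by the filter on low counts, as given below. The median log2 fold change of the members was 0.45 in WT and 0.42 in KO, against -0.02 and -0.03 over all genes tested. Scaling by total counts in place of TMM moved the median of all genes to -0.42 in WT and -0.37 in KO and gave 24 members higher and 25 lower in WT, and 23 and 25 in KO. Without KO Jurkat 4 h replicate 2, 48 members were called in KO. Of the 50 members called in both genotypes, all 50 moved the same way. The share of all genes that did so was not counted, so this is not a result particular to the members.

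**Figure D1:**
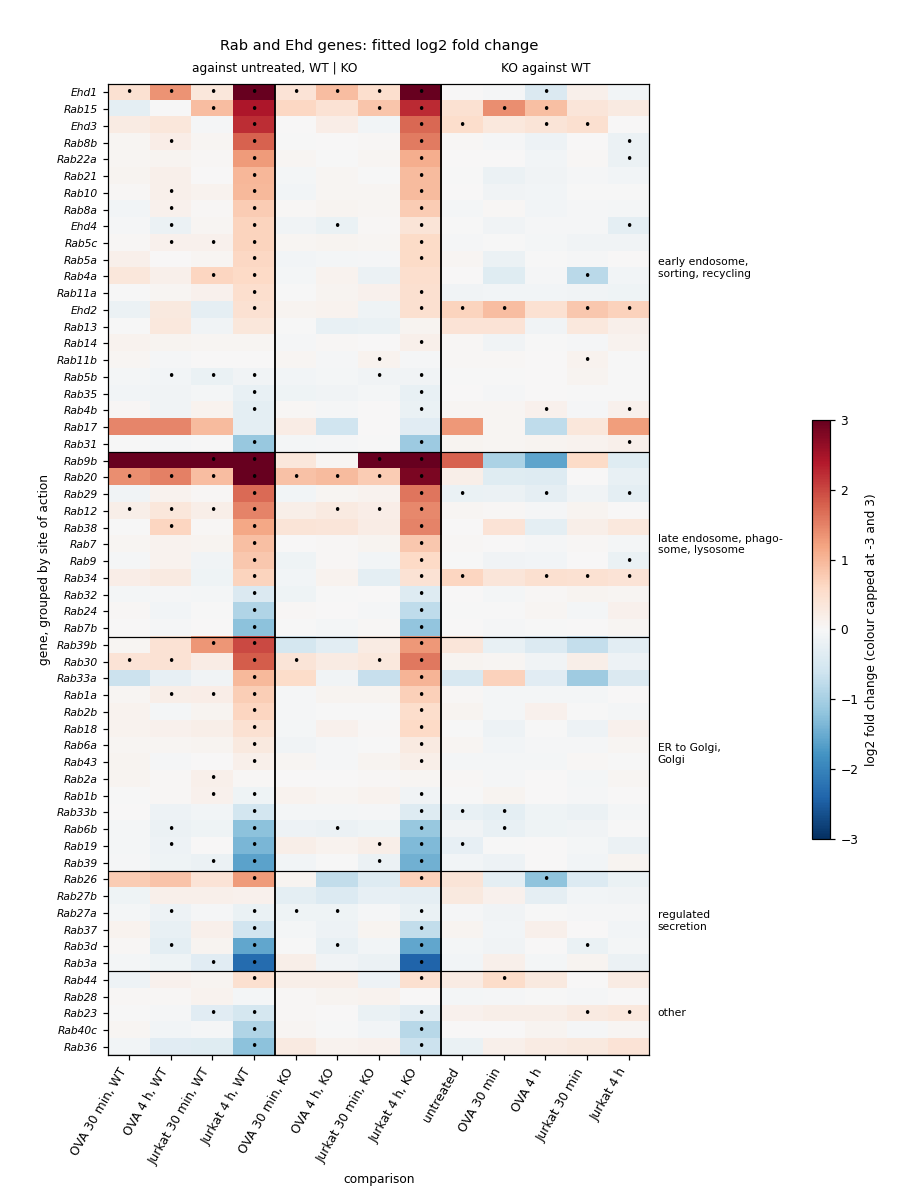
Fitted log2 fold change (colour, red higher and blue lower, capped at -3 and 3) of the 58 tested genes, in rows grouped by site of action, in 13 comparisons, in columns; a dot marks FDR under 0.05. The 2 columns for Jurkat cells at 4 h hold 51 dots each, and the 5 columns of KO against WT hold 5 to 10.

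Of the 22 tested genes of the early endosome and recycling group, 14 were called higher and 4 lower in WT, with a median of 0.62, and 12 and 6 with total-count scaling. The number called was near the background of 79.5%, and no test of the split was made. Ehd1, an ATPase that forms tubules for exit from recycling endosomes, was at 55.8, 56.3 and 59.4 CPM in the 3 untreated WT libraries and at 539, 550 and 565 CPM after 4 h. The groups lay far apart, and Ehd1 rose by 3.27 (SE 0.0579, FDR 1.43e-27) in WT and by 3.19 (SE 0.0577, FDR 2.55e-27) in KO, where it reached 529, 516 and 520 CPM.

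Rab8b, a close relative of the exocytic Rab8a, went from 212, 185 and 183 CPM to 598, 729 and 656 CPM in WT. The lowest treated library was above 2 times the highest untreated one. Rab8b rose by 1.77 (SE 0.0658, FDR 2.46e-20), and Rab8a itself by 0.75 (SE 0.0336, FDR 2.21e-18). Rab22a, which acts in recycling from early endosomes, was at 28.7, 28.8 and 28.4 CPM untreated and 67.3, 74.1 and 67.7 CPM after Jurkat cells, a change of 1.28 (SE 0.0493, FDR 5.98e-20). Ehd3, an endosomal relative of Ehd1, went from 1.96, 2.18 and 2.27 CPM to 9.94, 10.2 and 9.85 CPM in WT with no overlap, a rise of 2.225 (SE 0.119, FDR 1.71e-16). Rab10, an exocytic and recycling Rab, rose by 0.97 (SE 0.0493, FDR 5.68e-17), though its gene overlaps Rab10os on the opposite strand.

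The 3 Rab5 genes, which share the early endosome, did not move together. Rab5c was at 213, 213 and 206 CPM untreated and at 321, 353 and 324 CPM after 4 h in WT, a rise of 0.66 (SE 0.0397, FDR 2.98e-15). Rab5a rose by 0.62 (SE 0.0602, FDR 1.37e-10), and Rab5b fell by 0.11 (SE 0.0327, FDR 0.00313). Total-count scaling moved the median of all genes lower, from -0.02 to -0.42, a shift that makes a fall such as that of Rab5b larger. DESeq2's size factors moved the median the other way, to 0.04, which makes it smaller. With DESeq2's size factors the early endosome and recycling group had 3 genes called lower in place of 4. Rab31, which acts between endosomes and the Golgi, fell from 81.7, 82.6 and 81.8 CPM to 38.2, 36.9 and 36.1 CPM, with no overlap and a change of -1.15 (SE 0.0469, FDR 2.56e-19).

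The late endosome, phagosome and lysosome group held 11 tested genes. Of these, 8 were called higher and 3 lower in WT, and 7 and 3 with total-count scaling. The share called was 100%, against 79.5% of all genes (38.9% higher and 40.6% lower), and no test of the split was made. The genes called higher include Rab9b, whose rise was fixed by the filter on low counts, as given below. Rab7 was at 306, 303 and 300 CPM in untreated WT and at 541, 596 and 563 CPM 4 h after Jurkat cells. In KO it was at 321, 304 and 310 CPM and then 557, 514 and 554 CPM. Treated and untreated libraries did not overlap in either genotype, and Rab7 rose by 0.90 (SE 0.0365, FDR 2.06e-19) in WT and by 0.80 (SE 0.0365, FDR 4.17e-18) in KO. Rab7b moved the other way, from 321, 326 and 322 CPM to 143, 132 and 134 CPM in WT, a change of -1.24 (SE 0.0414, FDR 1.99e-21).

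Rab20, a Rab found on maturing phagosomes, was at 1.71, 1.23 and 1.43 CPM in untreated WT and 11.8, 14.5 and 14.4 CPM after 4 h with Jurkat cells. It rose by 3.21 (SE 0.145, FDR 2.80e-18) in WT and by 2.82 (SE 0.142, FDR 4.54e-17) in KO. Its gene overlaps E230013L22Rik on the opposite strand. The library kit does not mark strand, so reads of the pair cannot be told apart where they overlap. Rab29, which recruits the kinase LRRK2 to Golgi and lysosomal membranes, went from 28.3, 27.9 and 28.1 CPM to 88.1, 91.3 and 94.6 CPM in WT, a change of 1.70 (SE 0.0627, FDR 2.13e-20). Rab12, which sends recycling receptors to lysosomes, rose by 1.49 (SE 0.0486, FDR 1.18e-21). Rab24 fell by 0.91 (SE 0.0495, FDR 2.69e-16) and Rab32, of lysosome-related organelles, by 0.44 (SE 0.0389, FDR 2.44e-11).

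Rab9b, a relative of the endosome-to-Golgi factor Rab9, had 0 counts in the 3 untreated WT libraries together, 17 after 30 min and 62 after 4 h with Jurkat cells. Against a floor of 3 counts over the group it was at least 5.55-fold higher at 30 min and at least 27.7-fold higher at 4 h. In KO it went from 1 count to 25 and 52, ratios of 26.0 (95% exact interval 4.26 to 1069) and 66.8 (11.5 to 2689), which cover counting error only. Its untreated and OVA libraries held at most 3 counts each, so Rab9b passed the filter on low counts only through groups with Jurkat cells. A rise with Jurkat cells was thus fixed by the filter, and its calls add no support. The level of Rab9b stayed low, and the 15 T-lineage genes summed to 110 CPM in the same WT group. The part of Jurkat RNA in these counts was not tested.

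Genes that act at the ER and Golgi split. Of 14 tested, 8 were called higher and 5 lower in WT, a share of 92.9% against 79.5% of all genes. Total-count scaling turned this to 4 and 8, with Rab43 and Rab6a called the other way. DESeq2's size factors gave 8 and 4. Rab30, a Golgi Rab, went from 6.10, 6.19 and 5.47 CPM to 21.2, 21.4 and 20.1 CPM, a rise of 1.82 (SE 0.0870, FDR 1.12e-17). Rab1a, which acts in transport from the ER, rose by 0.74 (SE 0.0609, FDR 4.65e-12), and its near relative Rab1b changed by -0.13 (SE 0.0392, FDR 0.00445). The median of all genes moved from -0.02 to -0.42 with total-count scaling, which makes a fall such as that of Rab1b larger. It moved to 0.04 with DESeq2's size factors, which makes such a fall smaller. Rab39, listed here with the Golgi but also described on phagosomes, fell from 32.9, 28.7 and 27.9 CPM to 9.23, 11.1 and 9.04 CPM, a change of -1.61 (SE 0.0675, FDR 4.83e-19). Rab6b and Rab19, both Golgi Rabs, fell by 1.24 (SE 0.0636, FDR 6.25e-17) and 1.38 (SE 0.0607, FDR 1.54e-18).

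Among the Rabs of regulated secretion, 4 of 6 tested genes were called lower in WT and 1 higher, the same counts as with total-count scaling. The share called, 83.3%, was near the background of 79.5%, and 40.6% of all genes were called lower. In KO the counts were also 4 and 1, but 5 and 0 with total-count scaling and 4 and 0 with DESeq2. Rab3d, a secretory granule Rab, was at 35.1, 37.0 and 41.8 CPM untreated and 12.2, 14.1 and 12.7 CPM after 4 h, a change of -1.55 (SE 0.0669, FDR 9.71e-19). Rab3a, of synaptic and other secretory vesicles, went from 5.34, 5.32 and 4.65 CPM to 0.918, 1.02 and 1.14 CPM, a change of -2.32 (SE 0.124, FDR 1.86e-16). These 2 genes had no overlap between treated and untreated libraries, which was a condition of naming them. Rab3a overlaps Mpv17l2 on the opposite strand.

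Rab27a changed far less than either. Its untreated WT libraries were at 109, 110 and 109 CPM, and those after 4 h with Jurkat cells at 93.4, 97.9 and 95.5 CPM, a change of -0.20 (SE 0.0343, FDR 7.65e-06). In KO it went from 105, 110 and 107 CPM to 94.3, 88.6 and 96.6 CPM, a change of -0.20 (SE 0.0342, FDR 3.89e-06). The groups did not overlap in either genotype. With total-count scaling the change in WT was -0.60.

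**Figure D2:**
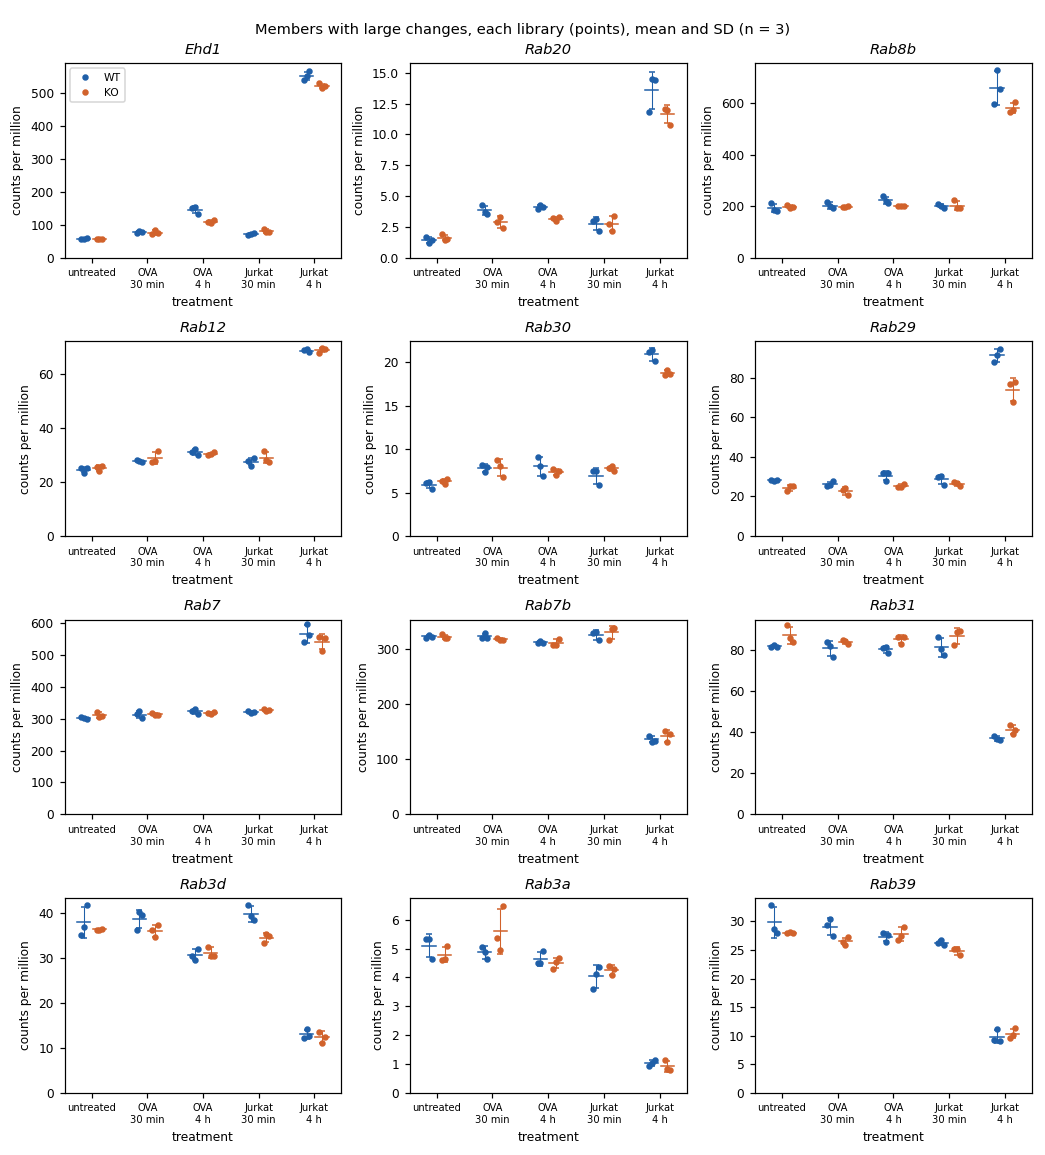
Level of 12 members in CPM (linear axis from 0) by treatment; points are libraries of WT (blue) and KO (orange), with the mean as a line and the SD as a bar, n = 3. Ehd1 in WT is at 539 to 565 after 4 h with Jurkat cells against 55.8 to 59.4 untreated, and Rab3a at 0.918 to 1.14 against 4.65 to 5.34.

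After 30 min with Jurkat cells the changes were smaller. In WT, 11 of 58 members were called higher and 4 lower, 25.9% of those tested against 28.7% of all genes, and without WT Jurkat 30 min replicate 1 there were 7 and 2. In KO, 8 were called higher and 2 lower, 17.2% against 17.0% of all genes. Leaving out KO Jurkat 30 min replicate 1 or KO untreated replicate 1 gave 6 and 0, and leaving out KO untreated replicate 2 gave 5 and 1. The 7 genes called in both genotypes moved the same way: Ehd1, Rab12, Rab15, Rab20 and Rab9b higher, Rab39 and Rab5b lower. Rab9b passed the filter on low counts only through groups with Jurkat cells, so its rise adds no support. Rab39 changed by -0.17 in KO (FDR 0.0416), and this call was lost without any of the 6 libraries (FDR 0.0764 to 0.127). In WT the Rab39 call was lost without Jurkat 30 min replicate 1 (FDR 0.0518) or untreated replicate 1 (FDR 0.177). The Rab12 call was lost in WT without Jurkat 30 min replicate 3 (FDR 0.106) or untreated replicate 2 (FDR 0.0666), and in KO without Jurkat 30 min replicate 1 (FDR 0.0796) or untreated replicate 2 (FDR 0.0504). With the compared groups only, Rab12 and Rab39 lost their calls in both genotypes.

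Ehd1 stood at 69.8, 71.7 and 74.9 CPM in WT at 30 min, above all 3 untreated libraries, a rise of 0.34 (SE 0.0552, FDR 3.78e-05). Rab3a stood at 3.61, 4.13 and 4.36 CPM, below its untreated libraries, a change of -0.34 (SE 0.0948, FDR 0.00843), which was -0.26 with FDR 0.0686 without WT Jurkat 30 min replicate 1. Rab20 was at 3.02, 3.16 and 2.14 CPM, a rise of 0.92 (SE 0.166, FDR 1.20e-04). Rab15, an early endosome Rab, rose from 0.312, 0.410 and 0.408 CPM to 0.810, 0.610 and 0.751 CPM, by 0.94 (SE 0.209, FDR 0.00118), and at 4 h by 2.43 (SE 0.187, FDR 9.24e-13). These low levels lie beside sums of 42.8 and 110 CPM for the 15 T-lineage genes at the 2 times. The part of Jurkat RNA in these levels was not tested.

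OVA protein changed fewer of these genes. After 4 h in WT, 10 of 58 members were called higher and 6 lower, 27.6% against 23.5% of all genes; total-count scaling gave 10 and 9. The counts were 7 and 3 without WT OVA 4 h replicate 1 and 6 and 3 without WT untreated replicate 3. In KO, 3 were called higher and 4 lower, 12.1% against 11.6% of all genes, and 3 and 1 without KO OVA 4 h replicate 2. The 7 genes called in both genotypes moved the same way, with Ehd1, Rab12 and Rab20 higher and Ehd4, Rab27a, Rab3d and Rab6b lower. In KO the Rab6b call (-0.18, FDR 0.0450) was lost without any of 5 of the 6 libraries and with total counts or no filter. The KO call of Rab27a was lost without any of 3 libraries (KO OVA 4 h replicates 1 and 2, KO untreated replicate 2), that of Rab3d without KO OVA 4 h replicate 2 or 3 and that of Ehd4 without KO untreated replicate 1. The 15 T-lineage genes summed to 3.71 ± 0.406 CPM in WT and 4.25 ± 0.637 in KO. Of 6 monocyte or macrophage markers, 5 were called higher with OVA at 4 h in WT (median 0.31) and 2 in KO (median 0.19), and 3 were called lower in KO than in WT at this time. They summed to 2762 ± 107 CPM in untreated WT and 3428 ± 144 after OVA, and to 3043 ± 261 and 3472 ± 50.8 in KO. Their part in the changes with OVA was not tested.

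Ehd1 reached 151, 153 and 133 CPM in WT 4 h after OVA, more than 2 times its untreated level, a rise of 1.35 (SE 0.0551, FDR 1.05e-16). Rab20 reached 3.99, 4.27 and 4.09 CPM, a rise of 1.5 (SE 0.157, FDR 2.91e-08). Rab30 was at 9.08, 8.12 and 6.93 CPM and rose by 0.44 (SE 0.0917, FDR 6.95e-04), and Rab12 was at 31.2, 32.0 and 29.8 CPM and rose by 0.34 (SE 0.0494, FDR 5.53e-06). None of these 4 genes overlapped its untreated libraries, which for Ehd1, Rab30 and Rab12 was a condition of naming them.

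Falls with OVA at 4 h were small. Rab3d was at 30.6, 29.7 and 32.1 CPM, below its untreated libraries, a change of -0.30 (SE 0.0596, FDR 3.79e-04). Ehd4, a relative of Ehd1 on endosomes, went from 219, 220 and 220 CPM to 192, 195 and 193 CPM, a change of -0.18 (SE 0.0482, FDR 0.00549), whereas it rose with Jurkat cells. Rab27a was at 98.8 ± 1.37 CPM (SD, n = 3), a change of -0.15 (SE 0.0339, FDR 0.00187). Rab6b went from 38.4, 38.2 and 41.5 CPM to 35.7, 35.3 and 34.4 CPM with no overlap, a change of -0.17 (SE 0.0579, FDR 0.0387). It lost its call without any of the 3 WT OVA 4 h libraries or WT untreated replicate 3 (FDR 0.0610 to 0.191). Rab7 did not pass the test, at 325, 330 and 315 CPM, a change of 0.10 (SE 0.0363, FDR 0.0583).

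At 30 min with OVA, 4 members were called higher in WT and 0 lower (6.90% against 10.7% of all genes), and 7 higher and 0 lower without WT untreated replicate 1. They were Ehd1, Rab12, Rab20 and Rab30, of which Rab12 (FDR 0.0179) lost its call without WT OVA 30 min replicate 1 or 2 or WT untreated replicate 2 (FDR 0.0550 to 0.118). In KO, 3 were called higher and 1 lower (6.90% against 3.77% of all genes). The lower call was Rab27a (-0.12, FDR 0.0404), which was lost without any of the 6 libraries (FDR 0.0502 to 0.163), with no filter and with the compared groups only. The KO counts were 1 and 0 without KO OVA 30 min replicate 2 and 2 and 0 without KO untreated replicate 1 or 2. Without the shallow KO OVA 30 min replicate 3 the KO count was 3. Ehd1 was at 75.8, 79.8 and 78.5 CPM in WT at 30 min, a rise of 0.45 (SE 0.0551, FDR 2.46e-06), and Rab20 at 4.28, 3.71 and 3.58 CPM, a rise of 1.405 (SE 0.159, FDR 6.81e-07), already near its value at 4 h.

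The OVA and Jurkat comparisons share their untreated libraries, so their values are set side by side without a test. Ehd1 in WT changed by 0.45 and 1.35 with OVA and by 0.34 and 3.27 with Jurkat cells at 30 min and 4 h. Rab20 changed by 1.405 and 1.5 with OVA and by 0.92 and 3.21 with Jurkat cells. Rab7b changed by 0.00 and -0.05 with OVA and by 0.01 and -1.24 with Jurkat cells.

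**Figure D3:**
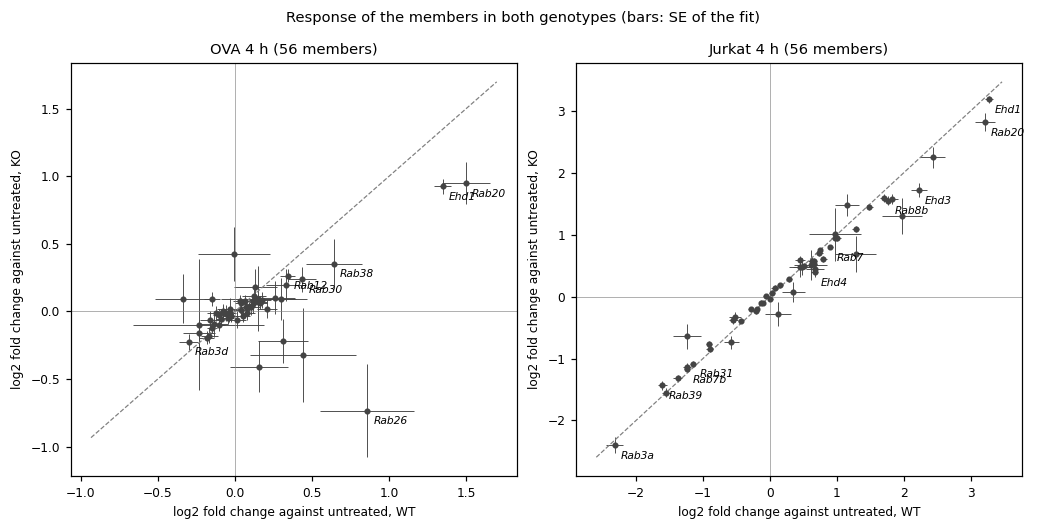
Log2 fold change against untreated in WT (horizontal axis) and KO (vertical axis) for 56 members 4 h after OVA (left) and Jurkat cells (right), with the SE of the fit as bars and equality as a dashed line; Rab17 and Rab9b, whose SE exceeded 0.5, are left out. Ehd1 lies below the line with OVA, at 1.35 in WT and 0.93 in KO, and near it with Jurkat cells, at 3.27 and 3.19.

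Between genotypes, most members were not called. In the 5 comparisons of KO against WT, 37 of the 58 genes were called in none, 13 in 1 and 8 in at least 2, and 0 in both directions. Over all genes 62.9% were called in none. Untreated cells had 3 members called higher and 3 lower in KO (10.3% against 9.97% of all genes), cells with OVA for 30 min 3 and 2 (8.62% against 12.4%), and with OVA for 4 h 4 and 3 (12.1% against 12.6%). With Jurkat cells there were 5 and 2 at 30 min (12.1% against 9.25%) and 5 and 5 at 4 h (17.2% against 22.9%). Total-count scaling gave 13 higher and 2 lower in the last, and 3 and 2 in untreated cells. DESeq2's size factors gave 3 and 5 with OVA at 30 min and 3 and 2 with Jurkat cells at 30 min.

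These small counts turned on single libraries. Without KO untreated replicate 1, 1 member was higher and 2 lower in untreated cells. With OVA at 30 min the counts were 3 and 0 without KO OVA 30 min replicate 2, 2 and 1 without WT OVA 30 min replicate 2, and 3 and 6 without WT OVA 30 min replicate 3. With OVA at 4 h they were 1 and 2 without KO OVA 4 h replicate 1 and 2 and 2 without WT OVA 4 h replicate 1. With Jurkat cells at 30 min they were 2 and 0 without KO replicate 1, KO replicate 3 or WT replicate 1, 1 and 0 without WT replicate 2, and 3 and 1 without WT replicate 3. At 4 h they were 3 and 2 without WT Jurkat 4 h replicate 2.

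Rab7 and Rab27a did not pass the test in any of the 5 genotype comparisons. Rab7 differed by 0.04 (SE 0.0363, FDR 0.596) in untreated cells and by -0.06 (SE 0.0362, FDR 0.215) 4 h after Jurkat cells. Rab27a differed by -0.03 (SE 0.0338, FDR 0.724) and -0.04 (SE 0.0346, FDR 0.498).

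Ehd2 and Rab34 were the members called higher in KO in at least 4 of 5 comparisons, as were 2.72% of all genes tested. Ehd2, an ATPase at the neck of caveolae, was at 5.36, 4.83 and 5.55 CPM in untreated WT and 11.0, 7.71 and 6.39 CPM in untreated KO. The groups did not overlap, and the difference was 0.67 (SE 0.164, FDR 0.00738), or 0.42 with FDR 0.123 without KO untreated replicate 1. It was 0.93 (SE 0.174, FDR 5.57e-04) with OVA at 30 min, 0.81 (SE 0.170, FDR 0.00250) with Jurkat cells at 30 min and 0.69 (SE 0.162, FDR 0.00265) at 4 h. With OVA at 4 h the libraries overlapped, at 5.13, 5.46 and 8.61 CPM in WT and 9.13, 8.46 and 9.12 CPM in KO, and the difference of 0.46 (SE 0.160, FDR 0.0540) did not pass.

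Rab34, which acts in lysosome positioning and ciliary traffic, was at 3.05, 3.45 and 3.12 CPM in untreated WT and 5.73, 5.33 and 3.97 CPM in untreated KO, with no overlap and a difference of 0.64 (SE 0.129, FDR 0.00120). It was 0.49 (SE 0.126, FDR 0.00901) with OVA at 4 h, 0.46 (SE 0.134, FDR 0.0286) with Jurkat cells at 30 min and 0.41 (SE 0.126, FDR 0.0197) at 4 h. The call with OVA at 4 h was lost without KO replicate 1 (FDR 0.0841) or WT replicate 2 (FDR 0.0658). That with Jurkat cells at 30 min was lost without KO replicate 1 or 3 or WT replicate 1 or 2 (FDR 0.0657 to 0.107), and that at 4 h without KO replicate 2 or WT replicate 2 or 3 (FDR 0.0687 to 0.112). Ehd3 was called higher in KO in 3 comparisons, by 0.53 (SE 0.129, FDR 0.00685) in untreated cells, and this call was lost without KO untreated replicate 1 (0.36, FDR 0.102). Its call with OVA at 4 h (0.395, FDR 0.0323) was lost without KO or WT OVA 4 h replicate 1 or 2 (FDR 0.0993 to 0.177), and that with Jurkat cells at 30 min (0.48, FDR 0.0180) without KO replicate 1 or 2 or WT replicate 2 (FDR 0.0577 to 0.101).

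Rab15 was called higher in KO with OVA at both times. At 30 min it was at 0.333, 0.285 and 0.298 CPM in WT and 0.754, 0.874 and 0.772 CPM in KO, with no overlap and a difference of 1.395 (SE 0.226, FDR 1.05e-04). The WT libraries held only 16, 14 and 14 counts at 30 min. At 4 h the difference was 0.895 (SE 0.211, FDR 0.00408). Untreated libraries did not overlap either, at 0.312, 0.410 and 0.408 CPM in WT and 0.567, 0.435 and 0.561 CPM in KO, without a call. The response to OVA did not differ between genotypes by the interaction test (FDR 0.894 at 30 min and 0.803 at 4 h). Rab23, known for ciliary and Hedgehog traffic, and Rab4b, of fast recycling, were each called higher in 2 comparisons, with differences at 4 h with Jurkat cells of 0.32 (SE 0.0938, FDR 0.0125) and 0.14 (SE 0.0417, FDR 0.0163).

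The stromal and basophil or mast cell lists moved with these genes. Of the 6 stromal genes 3 to 6 were called higher in KO in each of the 5 comparisons, and of the 6 basophil or mast cell genes 6 were. With Jurkat cells at 4 h the stromal sum was 853 ± 65.6 CPM in WT and 1153 ± 134 in KO. The part of these cells in the levels of Ehd2, Ehd3, Rab15 and Rab34 was not tested.

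Lower in KO, Rab29 was called in 3 comparisons. It was at 28.3, 27.9 and 28.1 CPM in untreated WT and 22.7, 25.2 and 25.3 CPM in untreated KO, a difference of -0.20 (SE 0.0651, FDR 0.0458) with no overlap. It differed by -0.27 (SE 0.0649, FDR 0.00556) with OVA at 4 h and by -0.30 (SE 0.0595, FDR 4.57e-04) with Jurkat cells at 4 h. Rab33b, a Golgi Rab that binds the autophagy protein Atg16l1, differed by -0.23 (SE 0.0664, FDR 0.0248) in untreated cells and by -0.30 (SE 0.0694, FDR 0.00416) with OVA at 30 min.

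**Figure D4:**
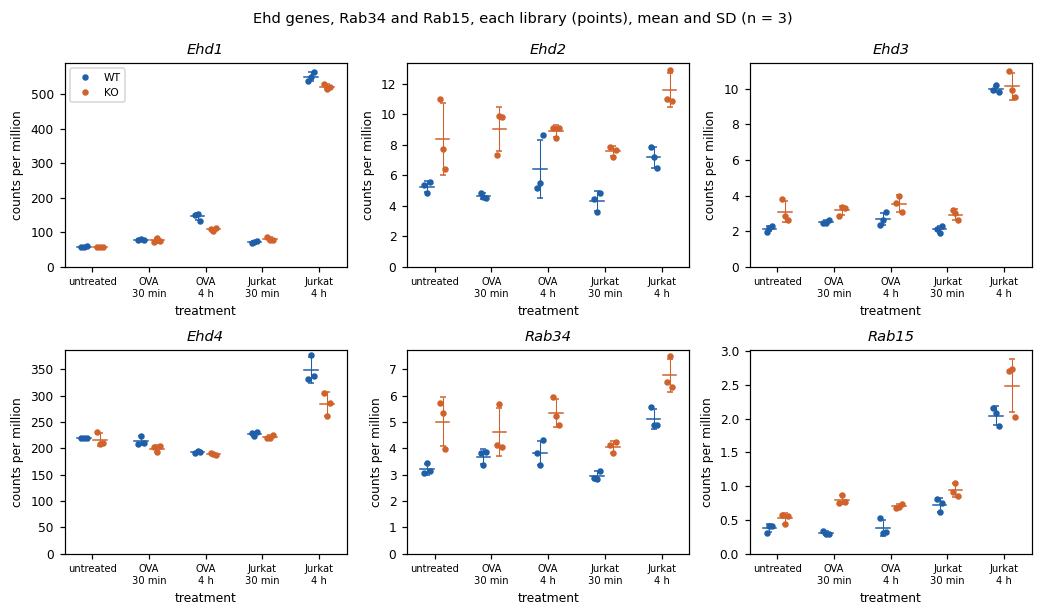
Level of the 4 Ehd genes, Rab34 and Rab15 in CPM (linear axis from 0) by treatment; points are libraries of WT (blue) and KO (orange), with the mean as a line and the SD as a bar, n = 3. At 4 h with OVA, Ehd1 is at 133 to 153 in WT and 104 to 113 in KO.

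Whether the response to a treatment differed between genotypes was tested by the interaction. With OVA at 4 h, 1 member was called, Ehd1, as were 0.0405% of all genes tested. Its level was 57.2 CPM on average in untreated cells of both genotypes, and 151, 153 and 133 CPM in WT against 109, 104 and 113 CPM in KO 4 h after OVA, with no overlap. The rise was 1.35 in WT and 0.93 in KO, and the difference between them was -0.42 (SE 0.0771, FDR 0.0220), or -0.39 to -0.48 with any 1 library left out. The call was lost, with FDR 0.0662 to 0.136, when replicate 1 or 2 of any of the 4 groups was left out (WT and KO, untreated and OVA 4 h). The direct comparison of KO with WT at this time gave the same difference, -0.42 (SE 0.0536, FDR 2.02e-06), and was called without any 1 library. The monocyte or macrophage markers given above were called higher with OVA in 5 of 6 cases in WT and 2 of 6 in KO, and their part in this difference was not tested.

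With Jurkat cells at 4 h, 1 member was called, Ehd4, as were 4.26% of all genes tested. Ehd4 rose from 219, 220 and 220 CPM to 332, 377 and 338 CPM in WT and from 231, 208 and 210 CPM to 306, 261 and 287 CPM in KO. The rises were 0.67 (SE 0.0482) and 0.40 (SE 0.0481), and the difference was -0.27 (SE 0.0680, FDR 0.0204). It lost its call without KO Jurkat 4 h replicate 2 (-0.215, FDR 0.0622), the library that stands apart, without KO untreated replicate 1 (-0.22, FDR 0.0728) and without WT Jurkat 4 h replicate 2 (-0.215, FDR 0.0730). Without KO untreated replicate 3, 2 members were called lower. With total-count scaling the rise in KO was 0.06 with FDR 0.229. The sum of the 15 T-lineage genes was also lower in KO, 75.1 against 110 CPM, and its part in the difference was not tested.

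At 30 min the interaction called 0 members with OVA and 0 with Jurkat cells, where edgeR called 0% and 0.00675% of all genes tested. DESeq2 called 0 members in both. Rab20 responded to OVA at 4 h by 1.5 in WT and 0.95 in KO, a difference of -0.55 (SE 0.228, FDR 0.604) that did not pass.

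The regulators of the Rab cycle were taken from lists of known genes. Of 37 exchange factors tested, 4 were called higher and 10 lower in WT 4 h after OVA, and 17 and 16 after Jurkat cells. Of all genes, 11.9% were called higher and 11.7% lower with OVA, and with Jurkat cells 38.9% and 40.6%, so the number of exchange factors called with Jurkat cells was near the background of 79.5%. Of 37 GTPase-activating proteins tested, 2 and 11 were called with OVA, and 10 and 17 with Jurkat cells. Of 38 effectors and tethers, the counts were 3 and 9, and 10 and 16. Of 8 genes for prenylation and membrane extraction, 1 and 1 were called with OVA and 1 and 6 with Jurkat cells. The medians with OVA lay between -0.09 and 0.01, against -0.00 over all genes tested.

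Gdi2, which extracts GDP-bound Rabs from membranes, was at 727 ± 7.90 CPM in untreated WT and 640 ± 14.7 CPM 4 h after OVA, a change of -0.18 (SE 0.0340, FDR 1.61e-04). Tbc1d14, a Rab-binding TBC-domain protein of autophagy, went from 147 ± 4.27 to 122 ± 1.77 CPM, a change of -0.265 (SE 0.0347, FDR 1.22e-06). Rin3, a Rab5-family exchange factor, fell by 0.22 (SE 0.0522, FDR 0.00198). Rilpl2, a binder of phosphorylated Rab8 and Rab10, rose from 32.8 ± 0.732 to 44.8 ± 1.16 CPM, by 0.45 (SE 0.0526, FDR 2.00e-07). Between genotypes at this time, the calls (higher, then lower in KO) were 2 and 0 among exchange factors, 4 and 2 among GTPase-activating proteins, 6 and 2 among effectors, and 0 and 0 among prenylation genes, where 6.22% of all genes were called higher and 6.35% lower. Rab11fip4, a Rab11 effector, was higher in KO, at 15.0 ± 0.559 against 11.6 ± 0.774 CPM, by 0.37 (SE 0.0701, FDR 4.82e-04).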

How the data were processed

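The files hold deposited read counts per gene for 30 libraries of total RNA. Per the submitters' processing notes, the authors used STAR 2.5, Subread, featureCounts 1.5.0-p1 and DESeq2 with mm10; for the annotation, strand setting and handling of human reads, nothing is stated. The TruSeq RNA Library Prep Kit v2 does not mark strand.

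The deposited counts were tested with edgeR 4.0.16 (R 4.3.3, limma 3.58.1) by the quasi-likelihood F test, two-sided, with TMM scaling, filterByExpr by group, 1 mean per group over all 30 libraries and Benjamini-Hochberg adjustment over 14808 genes, which kept 99.99% of counts. TMM factors were 0.765 to 0.842 in the groups with Jurkat cells for 4 h and 1.03 to 1.07 in the others. The fit was tested on data simulated for KO against WT in untreated cells only. This does not cover the broad changes with Jurkat cells at 4 h. Alternatives were DESeq2's size factors, total counts, no filter, a stricter filter (5 CPM in 3 libraries), a replicate block, the compared groups only, DESeq2 1.42.0, and each library left out.

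Members and lists were chosen with earlier results of these data known. Named with values in every library were Rab7, Rab27a, members called one way in at least 4 of 5 genotype comparisons, the 3 largest rises and falls of at least 5 CPM without overlap at 4 h in WT, the largest of each at 30 min, and members with a called interaction; other members illustrate their group. Exon lengths matched all 63 members, and 13 members overlap another listed gene.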

Additional observations from a re-analysis of the deposited data

Results flagged for a closer look

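The response of Ehd1 to OVA at 4 h differed between genotypes by the interaction test, by -0.42 on the log2 scale (KO minus WT). It kept its direction with any 1 library left out and lost its call without any of 8 of the 12 libraries.

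The response of Ehd4 to Jurkat cells at 4 h differed by -0.27 (KO minus WT) in the same test. It lost its call without any of 3 libraries and when only the compared groups entered the fit.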

How the results depend on the processing

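Counts of members called moved by more than 1.5 times under 3 kinds of alternative apart from leaving out a library, and the cause was not tested. For KO against WT with OVA at 30 min, DESeq2's size factors gave 8 and DESeq2 9 (5 in the report). Fitting the compared groups only, which leaves fewer libraries to estimate the spread, gave 2 for OVA at 30 min in KO (4 in the report), 4 for Jurkat cells at 30 min in KO (10) and 0 for the interaction with Jurkat cells at 4 h (1). With each library left out in turn, the counts of KO against WT ranged from 3 to 5 in untreated cells, 3 to 9 with OVA at 30 min, 3 to 6 with OVA at 4 h, 1 to 5 with Jurkat cells at 30 min and 5 to 10 at 4 h. Against untreated in WT they ranged from 3 to 7 and 9 to 20 with OVA, and from 9 to 17 and 48 to 52 with Jurkat cells, at 30 min and 4 h. In KO these ranges were 1 to 4, 4 to 6, 6 to 9 and 48 to 50. The interactions ranged from 0 to 0, 0 to 1, 0 to 0 and 0 to 2. Of 1176 alternatives to 90 called values of 17 named members, 1065 kept direction and call, 111 lost the call and 0 reversed. Many of these members were named for large changes. Calls of the other members, among them Rab22a, Rab23, Rab29, Rab33b and Rab4b, were not followed singly, except for direction under other scalings with Jurkat cells at 4 h. There, total-count scaling called Rab43 and Rab6a the other way in WT. In KO it changed the sign of 3 called members, Rab14, Rab43 and Rab6a, and 2 of them were called the other way. Same-numbered libraries did not deviate together: correlations ran from -0.118 to 0.151, and in 0 of 13 comparisons was every pair above 0.1. A replicate block moved no count by more than 1.5 times, giving 5, 5, 7, 6 and 11 members for KO against WT (untreated, OVA at 30 min and 4 h, Jurkat cells at 30 min and 4 h). Depth limits low members such as Rab15 and Rab9b most.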
